A study of Rattus norvegicus with 6 samples.

Results

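The major histocompatibility complex (MHC) genes described here are those whose rat symbol begins with RT1-, the name of the rat MHC, together with Cd74, Ciita, B2m, Tap1, Tap2, Tapbp, Psmb8, Psmb9, Psmb10, Ctss, Cd1d1, Cd40, Cd80 and Cd86. This rule gave 57 of 32623 genes: 43 rows with an RT1- symbol and the 14 other genes. They fall into 39 class I genes, 14 class II genes and 4 others. RT1-CE16 and RT1-DMb are each listed under 2 gene identifiers, so the 57 rows carry 55 distinct symbols.

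Messenger RNA was sequenced from primary liver sinusoidal endothelial cells of Han Wistar rats, the fenestrated cells that line the liver's capillaries. Isolated cells were kept for 48 h in a perfused culture device beside primary hepatocytes, hepatic stellate cells and hepatic macrophages, at a shear stress of 1.15 dyn/cm2. The pathological group was cultured at 12 mmHg (3 libraries) and the physiological group at 1 mmHg (3 libraries), so the comparison asks what pressure does to these cells. All 6 libraries share the strain, the device, the neighbouring cell types, the shear stress and the duration, and the labels give no age and no uncultured cells, and do not say whether each library had its own animal or culture.

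Class I molecules consist of a heavy chain and the light chain beta-2-microglobulin and present peptides cut by the proteasome in the cytosol to CD8+ T cells. Class II molecules pair an alpha and a beta chain, are held by the invariant chain until it is cut away in endosomes, and present peptides from engulfed protein to CD4+ T cells. Liver sinusoidal endothelial cells take up circulating antigen and are known for presenting it in a way that favours T cell tolerance. Macrophages, dendritic cells and B cells express class II genes as well.

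Library totals ran from 11426299 to 23754767 expected counts in the pathological group and from 8925149 to 24025406 in the physiological group, and values are given as CPM, counts scaled to the library total. A count of 3 equalled 0.126 to 0.263 CPM in pathological libraries and 0.125 to 0.336 CPM in physiological libraries; intervals from such counts would cover counting error only. The libraries differed in other ways than pressure. Summed CPM of 14 hepatocyte markers was 425, 693 and 63692 in pathological replicates 1, 2 and 3, against 288, 47560 and 31706 in physiological replicates 1, 2 and 3. Pathological replicate 3 and physiological replicates 2 and 3 are called the hepatocyte-rich libraries below, a name given after the values were seen. Of 9 sinusoidal endothelial markers, Lyve1, Stab2 and Clec4g were higher in every hepatocyte-rich library than in the other 3, and 6 were not. Lyve1, a hyaluronan receptor, had 48.6, 67.7 and 1861 CPM in pathological libraries, against 314, 1711 and 1272 CPM in physiological libraries, whereas Mrc1, the mannose receptor, had 472, 33.7 and 221 CPM in pathological libraries, against 526, 184 and 140 CPM in physiological libraries. Cdh5, the endothelial cadherin, was present in every library at 170 to 235 CPM in the pathological group and 169 to 405 CPM in the physiological group. Not every endothelial marker was as even. Kdr had 4.93, 12.2 and 450 CPM in pathological libraries, against 55.4, 507 and 279 CPM in physiological libraries. Of 7 endothelial markers, 4 were higher in every hepatocyte-rich library than in any other library, Kdr among them, and Cdh5 was not. Summed CPM of 14 macrophage markers was 919, 46.5 and 1550 in pathological libraries, against 863, 1405 and 916 in physiological libraries, and 2 of the 14, Aif1 and Adgre1, were at 0 in pathological replicate 2. Of 5 B cell markers, 2 were at 0 in all 6 libraries, and their sum stayed at or under 0.168 CPM in each. In such bulk samples, fewer cells of a type and less RNA per cell cannot be told apart.

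The promoters of the class II chain genes carried letters of the shared class II control region. In this region the X box and the Y box are bound by the RFX complex and by NF-Y, and the transactivator encoded by Ciita acts through them. The stretches below, from RefSeq on the GRCr8 build and given 5′ to 3′ on each gene's own strand, are shown because these 4 chains represent both rat class II isotypes, RT1-D and RT1-B. Capitals mark AGCAAC, an X box word, and TGATTGG, a Y box word. They lie at chr20:4515302-4515400 (+ strand), chr20:4576982-4577048 (+ strand), chr20:4604145-4604211 (- strand) and chr20:4560208-4560305 (- strand).
RT1-Da: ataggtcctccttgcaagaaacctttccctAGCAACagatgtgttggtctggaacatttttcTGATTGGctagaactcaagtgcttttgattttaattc
RT1-Ba: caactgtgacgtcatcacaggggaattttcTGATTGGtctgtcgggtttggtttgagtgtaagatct
RT1-Bb: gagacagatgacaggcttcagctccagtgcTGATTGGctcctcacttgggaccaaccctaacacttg
RT1-Db1: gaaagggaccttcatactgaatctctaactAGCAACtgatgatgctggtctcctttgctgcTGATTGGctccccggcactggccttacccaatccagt

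Both words were searched on both strands in the 250 bases before each start. The table gave promoters for 42 of the 55 symbols, 28 class I, 11 class II and 3 others. TGATTGG was found in 9 of the 11 class II promoters and in 9 of the 28 class I promoters, against 6.42% of all 33469 promoters. AGCAAC was found in 7 of the 11 class II promoters and 4 of the 28 class I promoters, against 12.1% of all promoters. The words were chosen after some of these promoters had been read, a match is a description and not a bound site, and a promoter with no match only lacks these letters in this window.

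Some class I promoters, all of RT1-A and RT1-CE genes, carried both of a different pair of words. The promoters printed below all hold both. The sequences are those of RT1-A1 and RT1-A2, classical class I genes, and RT1-CE5 and RT1-CE10 of the RT1-CE region, which holds nonclassical genes. They lie on GRCr8 at chr20:4907056-4907208 (+ strand), chr20:4872670-4872851 (+ strand), chr20:3484102-3484284 (- strand) and chr20:3385117-3385200 (- strand). Capitals mark GATTCCCC, a word of NF-kappaB sites, then GTTTCACT, the reverse complement of the interferon response word AGTGAAAC, and, except in RT1-CE10, CCAATCA, the reverse complement of the Y box word.
RT1-A1: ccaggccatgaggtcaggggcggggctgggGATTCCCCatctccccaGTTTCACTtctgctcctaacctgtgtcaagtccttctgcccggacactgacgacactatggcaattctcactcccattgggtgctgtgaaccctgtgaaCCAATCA
RT1-A2: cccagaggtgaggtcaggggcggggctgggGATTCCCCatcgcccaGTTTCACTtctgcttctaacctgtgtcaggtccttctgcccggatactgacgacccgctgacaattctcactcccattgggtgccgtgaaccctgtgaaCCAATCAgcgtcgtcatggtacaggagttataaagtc
RT1-CE5: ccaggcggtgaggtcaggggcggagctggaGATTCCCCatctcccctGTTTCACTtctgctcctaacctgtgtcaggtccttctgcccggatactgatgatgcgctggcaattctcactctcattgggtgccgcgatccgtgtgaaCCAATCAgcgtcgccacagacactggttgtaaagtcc
RT1-CE10: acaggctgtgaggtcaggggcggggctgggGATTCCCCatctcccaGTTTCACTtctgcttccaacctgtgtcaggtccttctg

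GATTCCCC was found in 6 of the 28 class I promoters and 0 of the 11 class II promoters, against 0.69% of all promoters. AGTGAAAC was found in 8 of the 28 class I promoters and 0 of the 11 class II promoters, against 0.783% of all promoters. Except for RT1-M3-1 and RT1-N3 with AGTGAAAC, these matches were all in RT1-A and RT1-CE genes. The printed promoters of those families are closely alike, so the matches are not independent of each other. The looser interferon word GAAANNGAA, which can overlap AGTGAAAC, was found in 8 of the 28 class I promoters and in 1 class II promoter, that of Ctss, against 8.12% of all promoters. The promoter of Psmb10, an immunoproteasome subunit, held it in a pair of copies, shown in capitals below (chr19:50743293-50743395, - strand, GRCr8).
Psmb10: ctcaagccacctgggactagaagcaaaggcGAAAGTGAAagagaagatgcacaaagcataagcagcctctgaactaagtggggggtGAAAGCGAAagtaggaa

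No MHC gene passed the test between the pressures. Counts were compared with edgeR's quasi-likelihood test with Benjamini-Hochberg adjustment over all 12742 genes that passed a filter on low counts, and 40 of the 57 members passed that filter. At an adjusted p under 0.05, 0 of the 40 members were called, and 0% of all genes tested were called. The smallest adjusted p of a member was 1.00 with edgeR. At an unadjusted p under 0.05 there were 0 of the 40 members, against 33 genes or 0.259% of all tested. limma-voom called 0 genes, with 159 under an unadjusted 0.05, and DESeq2 called 1 gene, which was lower and no member, with 178 under an unadjusted 0.05. Those 178 include RT1-N2 and Cd1d1, with DESeq2 unadjusted p of 0.0457 and 0.0156 and an adjusted p of 1.00 for each. The spread behind this was wide, with a common biological coefficient of variation of 1.39 in edgeR and, for log2 fold changes, a median standard error of 1.72. Since no label names separate animals or cultures, these p-values measure only how far these samples lie apart, and that spread may be technical.

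Fold changes are log2 of pathological over physiological. Of the 40 members, 31 had a negative value and 9 a positive value, and 47.5% of all genes tested were negative. This count rested on 1 library: without physiological replicate 2, 19 of 41 members were negative, against 47.2% of genes. The median was -0.59 over the 28 class I members tested and -0.08 over the 8 class II members tested, beside 0.05 over all genes. Without physiological replicate 2 the class I median was 0.02. The class II median was 0.41 without pathological replicate 2 and -2.48 without pathological replicate 3.

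**Figure D1:**
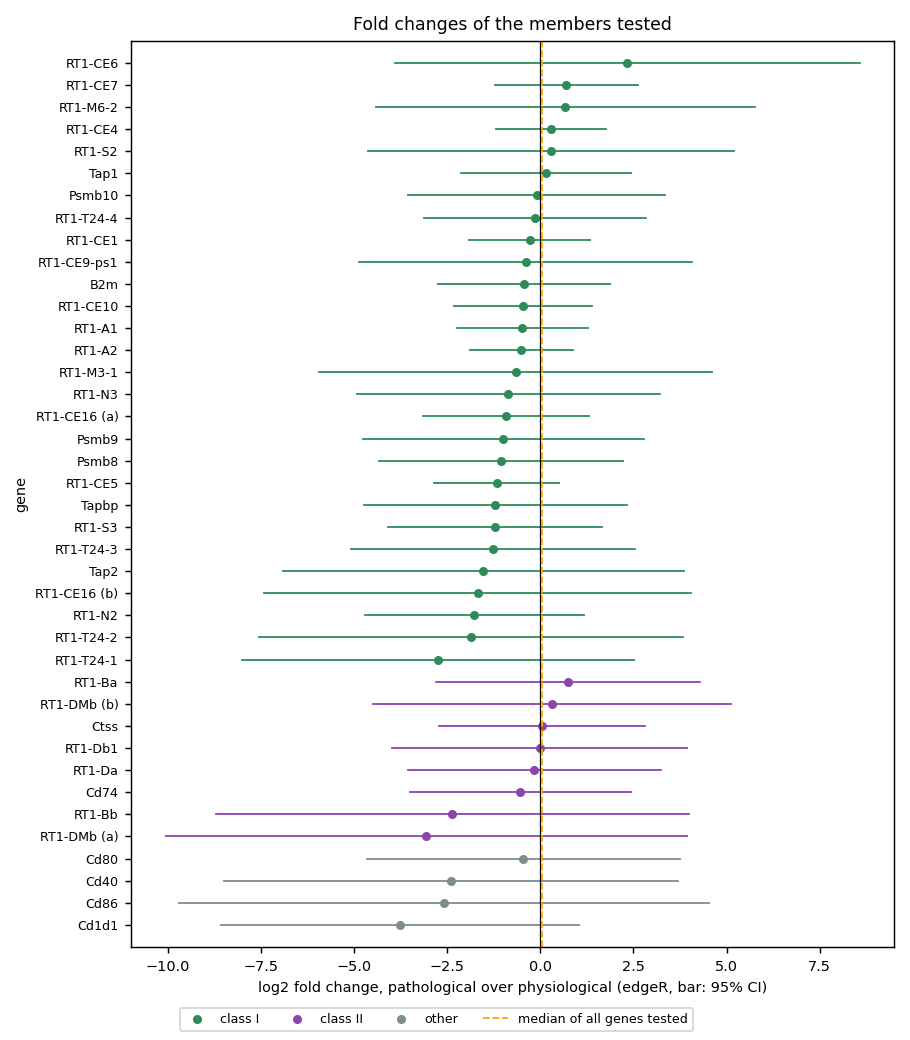
Log2 fold change of the 40 members tested, pathological over physiological (horizontal axis), by gene (vertical axis) and coloured by class. Bars are 95% confidence intervals worked out from the edgeR fit, and the dashed line is the median of all genes tested, 0.05. All 40 intervals cross 0, and 31 of the 40 points lie below it. RT1-CE16 (a) is ENSRNOG00000047706, (b) ENSRNOG00000059770; RT1-DMb (a) is ENSRNOG00000049491, (b) ENSRNOG00000051002.

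Groups that did not overlap in CPM were few. Pathological libraries were all lower than physiological libraries for 3 of the 40 members, RT1-N2, Tapbp and Cd1d1, against 3.29% of all genes tested. They were all higher for 0 of the 40, against 0.981% of genes. RT1-DOa did lie higher in each pathological library, at 0.421, 0.930 and 0.175 CPM, against 0.125, 0.0584 and 0 CPM in physiological libraries, but it stayed under the filter and was not tested.

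The class II chains varied widely over the libraries in both isotypes, and their levels did not separate the pressures. In what follows, values are given for replicates 1, 2 and 3 of each group in turn. The alpha chain RT1-Da had 13.9, 1.48 and 148 CPM in pathological libraries, against 17.1, 83.7 and 76.7 CPM in physiological libraries. Its log2 fold change was -0.16 (95% CI -3.55 to 3.23). The highest and the lowest of the 6 values were both pathological, so the groups overlapped throughout. Its beta chain partner RT1-Db1 had 3.70, 0.973 and 147 CPM in pathological libraries, against 8.44, 48.7 and 86.0 CPM in physiological libraries (log2 fold change -0.01, 95% CI -3.97 to 3.95). The other isotype's alpha chain, RT1-Ba, had 9.30, 1.10 and 118 CPM in pathological libraries, against 10.7, 33.7 and 31.5 CPM in physiological libraries (log2 fold change 0.74, 95% CI -2.81 to 4.28). For all 3 of these chains, the hepatocyte-rich libraries were higher than the other 3 libraries, and pathological replicate 2 was lowest. The ratio of RT1-Da to RT1-Ba moved far less than either gene, between 1.26 and 1.49 in pathological libraries and between 1.59 and 2.48 in physiological libraries.

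Cd74, the invariant chain, had 104, 2.75 and 319 CPM in pathological libraries, against 96.1, 295 and 209 CPM in physiological libraries (log2 fold change -0.54, 95% CI -3.50 to 2.43). As for the chains, the hepatocyte-rich libraries were the 3 highest, with pathological replicate 3 first, and pathological replicate 2 was far below all others. Ctss, cathepsin S, which removes the invariant chain, had 150, 1.78 and 121 CPM in pathological libraries, against 91.6, 126 and 42.8 CPM in physiological libraries (log2 fold change 0.05, 95% CI -2.71 to 2.81). Pathological replicate 2 was again the lowest library, but here pathological replicate 1, poor in hepatocyte transcripts, was the highest.

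Other class II members were scattered or near the floor. RT1-Bb, the beta chain paired with RT1-Ba, was at 0 in pathological replicate 2 and physiological replicate 3 and reached 26.0 CPM in physiological replicate 2. RT1-Db2 did not exceed 2.76 CPM in any library. RT1-Ha had 206 counts in the pathological group, 205 of them in replicate 3, against 0 in the physiological group, at least 58.4-fold higher for a floor of 3 counts over the group. Among the peptide editors, which exchange peptides on class II molecules, RT1-DMa and RT1-DOb showed the reverse in single libraries. RT1-DMa had 0 counts in the pathological group, against 141 in the physiological group, all in replicate 1 (at least 55.2-fold lower). RT1-DOb had 0 counts in the pathological group, against 162 in the physiological group, all in replicate 3 (at least 63.4-fold lower). Each of these 3 bounds rests almost wholly on 1 library and has no replicate behind it. RT1-DMb, summed over its 2 identifiers because their reads may have been divided between them, had 13.6, 0.254 and 13.1 CPM in pathological libraries, against 15.9, 22.8 and 0.112 CPM in physiological libraries. Ciita, the class II transactivator, had 9, 0 and 0 counts in pathological libraries, against 8, 0 and 0 counts in physiological libraries. It was thus at 0 in the 3 libraries where RT1-Da, RT1-Ba and Cd74 were highest, and at 0 also in pathological replicate 2, where they were lowest. Its counts equalled only 0.379 CPM in pathological replicate 1 and 0.333 CPM in physiological replicate 1. A count of 3 equalled 0.263 CPM in pathological replicate 3, and 0.175 and 0.336 CPM in physiological replicates 2 and 3, so these 0 counts say little.

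**Figure D2:**
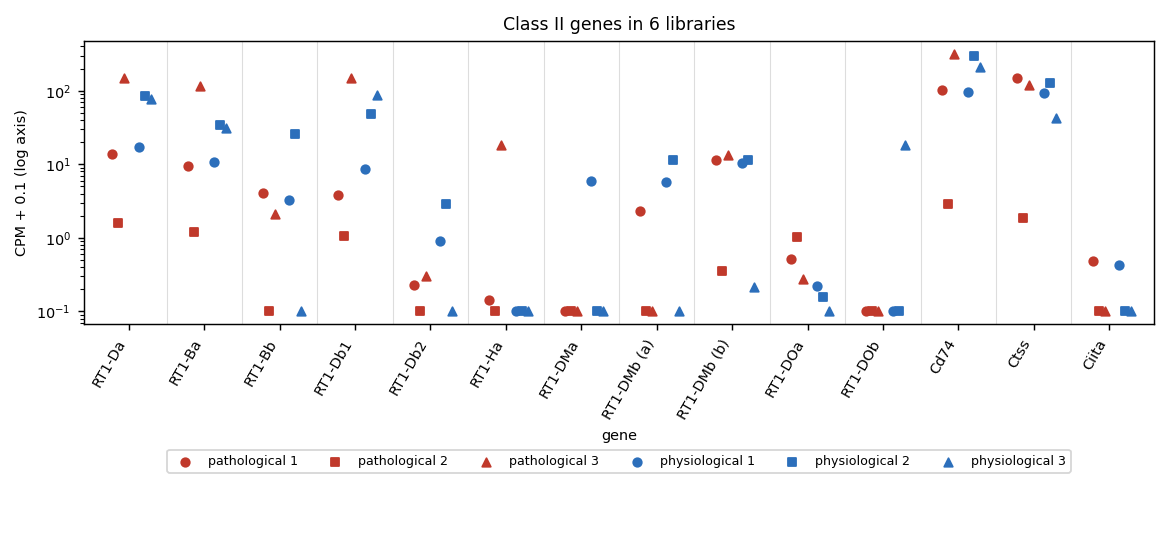
CPM plus 0.1 on a log axis (vertical) of the 14 class II genes (horizontal), 1 point per library, with pathological libraries in red and physiological libraries in blue and the marker shape giving the replicate. The red square, pathological replicate 2, is lowest for RT1-Da (1.48 CPM), RT1-Ba (1.10 CPM), RT1-Db1 (0.973 CPM), Cd74 (2.75 CPM) and Ctss (1.78 CPM); points at the bottom of the plot stand for 0 counts. RT1-DMb (a) is ENSRNOG00000049491, (b) ENSRNOG00000051002.

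Summed over the 6 class II chains and Cd74, the level was 135, 6.30 and 752 CPM in pathological libraries, against 136, 490 and 403 CPM in physiological libraries. The means were 298 ± 398 CPM in pathological and 343 ± 184 CPM in physiological libraries (SD, n = 3 each), a difference of -45.5 CPM that lay inside the spread. Its sign depended on single libraries. The difference was 35.9 CPM without pathological replicate 1, 100.1 CPM without pathological replicate 2 and 27.7 CPM without physiological replicate 2. It was -273 CPM without pathological replicate 3, -149 CPM without physiological replicate 1 and -15.4 CPM without physiological replicate 3. The highest library was 119 times the lowest, and 5.58 times without pathological replicate 2. The summed macrophage markers were lowest in that same library. Clec4f was not, with 19.1 CPM there, against 11.8 CPM in pathological replicate 1 and 9.99 CPM in physiological replicate 1. Divided by the summed macrophage markers, the class II level was 0.147, 0.135 and 0.485 in pathological libraries, against 0.158, 0.348 and 0.440 in physiological libraries, a 3.58-fold range. Divided by summed endothelial markers it was 0.146, 0.00846 and 0.390 in pathological libraries, against 0.0895, 0.199 and 0.282 in physiological libraries, a 46.1-fold range. Without pathological replicate 2 the ranges were close, 3.31-fold over macrophage markers and 4.35-fold over endothelial markers. The macrophage sum was made up unevenly. Lyz2 and Cd68 held 284 and 217 of 919 CPM in pathological replicate 1, and 240 and 131 of 863 CPM in physiological replicate 1. In pathological replicate 3 they held 25.8 and 86.7 of 1550 CPM, so the ratio rests on different genes in different libraries. The part of macrophage RNA in the class II level was not tested. The 8 dendritic cell markers summed to 78.7, 179 and 42.8 CPM in pathological libraries, against 90.1, 34.9 and 52.3 CPM in physiological libraries, and most of this was Itgax, which other myeloid cells express too. The other 7 summed to 11.7, 7.91 and 24.8 CPM in pathological libraries, against 28.7, 13.3 and 30.5 CPM in physiological libraries, lowest in pathological replicate 2. Xcr1, a marker of cross-presenting dendritic cells, had counts in pathological replicate 3 and in no other library. The part of dendritic cell RNA was not tested either.

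Class I was steadier than class II. The 32 heavy chain genes, pseudogenes included, summed to 730, 727 and 1490 CPM in pathological libraries, against 753, 2272 and 1370 CPM in physiological libraries. The means were 982 ± 440 CPM in pathological and 1465 ± 764 CPM in physiological libraries (SD, n = 3 each), and the whole range was 3.13-fold. Near-identical class I copies make single genes uncertain: 82.6% to 88.9% of the detected RT1 class I genes in a library had counts that were not whole, because reads were divided among genes, against 13.8% to 19.7% of all detected genes. Family sums are therefore given first. RT1-A summed to 271, 290 and 208 CPM in pathological libraries, against 262, 631 and 213 CPM in physiological libraries. RT1-CE summed to 382, 395 and 476 CPM in pathological libraries, against 358, 817 and 627 CPM in physiological libraries. In both families physiological replicate 2 was the highest library and the groups overlapped, with a range of 3.03-fold for RT1-A and 2.28-fold for RT1-CE. The sums of RT1-CE and of all class I chains were higher in every hepatocyte-rich library than in any other library, and the RT1-A sum was not.

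Within RT1-A, RT1-A1 had 99.7, 126 and 77.8 CPM in pathological libraries, against 99.2, 291 and 51.0 CPM in physiological libraries (log2 fold change -0.48, 95% CI -2.23 to 1.27). RT1-A2 had 171, 164 and 130 CPM in pathological libraries, against 163, 340 and 162 CPM in physiological libraries (log2 fold change -0.51, 95% CI -1.89 to 0.87). Both stood highest in physiological replicate 2, and neither followed the hepatocyte-rich libraries.

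Within RT1-CE, the genes did not move together. RT1-CE5 had 120, 98.6 and 161 CPM in pathological libraries, against 111, 321 and 368 CPM in physiological libraries (log2 fold change -1.17, 95% CI -2.86 to 0.51). RT1-CE10 had 45.5, 52.4 and 90.0 CPM in pathological libraries, against 42.9, 167 and 55.8 CPM in physiological libraries (log2 fold change -0.47, 95% CI -2.32 to 1.38). Both were higher in the hepatocyte-rich libraries than in the other 3. RT1-CE7 ran the other way, with 52.2, 54.8 and 32.3 CPM in pathological libraries, against 52.1, 20.8 and 19.4 CPM in physiological libraries (log2 fold change 0.70, 95% CI -1.22 to 2.62). The hepatocyte-rich libraries held its 3 lowest values.

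RT1-CE1 had 45.4, 52.6 and 59.2 CPM in pathological libraries, against 55.5, 91.2 and 49.3 CPM in physiological libraries (log2 fold change -0.29, 95% CI -1.91 to 1.34). RT1-CE4 had 80.1, 63.1 and 110 CPM in pathological libraries, against 67.1, 78.6 and 63.2 CPM in physiological libraries (log2 fold change 0.29, 95% CI -1.19 to 1.76). With ranges of 2.01-fold and 1.75-fold, these were the most even of the 27 members whose values are given in every library. RT1-CE16 (ENSRNOG00000047706) had 21.4, 48.6 and 22.7 CPM in pathological libraries, against 17.6, 89.9 and 63.3 CPM in physiological libraries (log2 fold change -0.92, 95% CI -3.14 to 1.31). The second RT1-CE16 row (ENSRNOG00000059770) had 2.78, 11.1 and 0.0928 CPM in pathological libraries, against 2.35, 46.3 and 0 CPM in physiological libraries (log2 fold change -1.67, 95% CI -7.41 to 4.06). Both rows were highest in physiological replicate 2.

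Summed by family, the nonclassical genes RT1-T24, RT1-S and RT1-N had a far wider range than RT1-A and RT1-CE. Single genes did not all follow this. RT1-N2 had a 4.93-fold range, against 5.72-fold for RT1-A1, and RT1-CE9-ps1 had a 40.8-fold range. RT1-T24-4 had 35.3, 19.9 and 462 CPM in pathological libraries, against 43.7, 237 and 265 CPM in physiological libraries (log2 fold change -0.13, 95% CI -3.11 to 2.85). RT1-T24-3 had 1.99, 2.76 and 89.6 CPM in pathological libraries, against 6.42, 140 and 79.9 CPM in physiological libraries (log2 fold change -1.27, 95% CI -5.08 to 2.54). Each gene split the hepatocyte-rich libraries from the others, and its pressure groups overlapped. RT1-S3 had 14.1, 7.81 and 126 CPM in pathological libraries, against 29.97, 226 and 92.0 CPM in physiological libraries (log2 fold change -1.21, 95% CI -4.08 to 1.66). RT1-N3 had 8.33, 0.0512 and 93.9 CPM in pathological libraries, against 27.8, 85.7 and 70.5 CPM in physiological libraries (log2 fold change -0.85, 95% CI -4.91 to 3.21). Both showed the same split. Summed over its 4 genes, RT1-T24 had 39.8, 25.5 and 564 CPM in pathological libraries, against 55.2, 454 and 345 CPM in physiological libraries, a 22.1-fold range, or 14.2-fold without pathological replicate 2.

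RT1-N2 was the class I chain whose groups did not overlap, with 6.06, 6.14 and 7.19 CPM in pathological libraries, against 13.8, 29.8 and 21.1 CPM in physiological libraries. Its log2 fold change was -1.77 (95% CI -4.70 to 1.17) and its edgeR unadjusted p was 0.202. Reads may have been divided between RT1-N2 and RT1-N3, a gene of like symbol, but this was not tested. The sum of both was 14.4, 6.19 and 101 CPM in pathological libraries, against 41.6, 116 and 91.7 CPM in physiological libraries, and these overlap. RT1-N3 varied far more than RT1-N2, so the overlap of the sum says little about RT1-N2 alone.

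**Figure D3:**
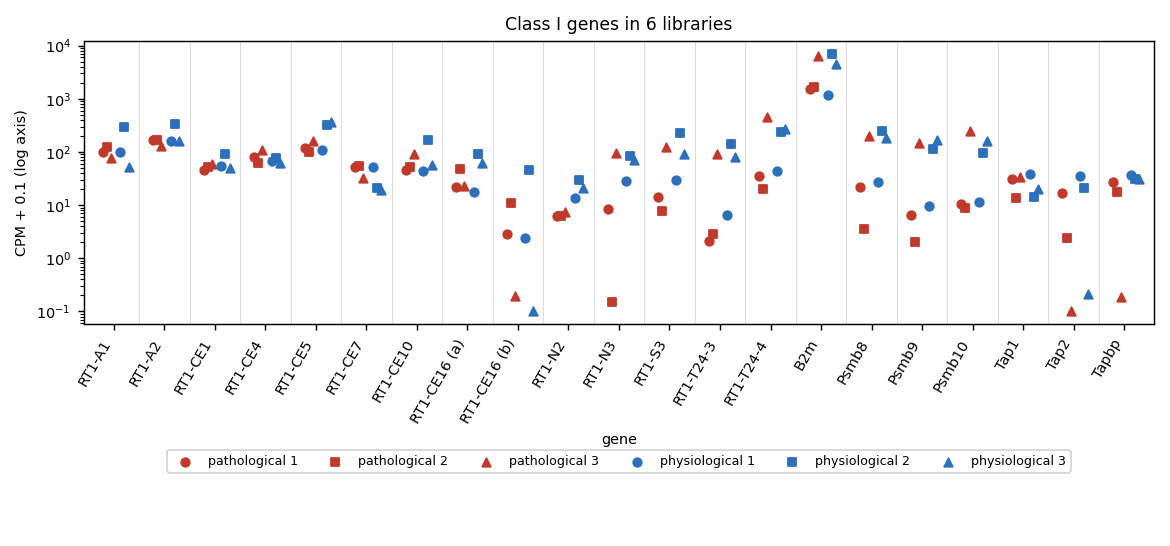
CPM plus 0.1 on a log axis (vertical) of 21 class I rows (horizontal), 1 point per library, with pathological libraries in red and physiological libraries in blue and the marker shape giving the replicate. RT1-CE4 spans 63.1 to 110 CPM, whereas RT1-T24-3 spans 1.99 to 140 CPM and Psmb9 1.90 to 170 CPM with 3 libraries high and 3 low. RT1-CE16 (a) is ENSRNOG00000047706, (b) ENSRNOG00000059770.

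Among the remaining class I chains, RT1-T24-1, RT1-T24-2, RT1-M3-1 and RT1-CE6 reached 31.1, 45.9, 27.1 and 7.26 CPM in their highest library and stayed at or under 0.108 CPM in at least 1 other. RT1-M3 presents bacterial formylated peptides in rodents. RT1-CE3, RT1-M2, RT1-M4, RT1-M5, RT1-M6-1, RT1-M6-2 and RT1-S2 did not exceed 1.49 CPM in any library. Of the 7 genes that are pseudogenes by symbol, 5 had 0 counts in all 6 libraries, RT1-M10-3-ps had 1 count in each of 2 libraries, and RT1-CE9-ps1 had between 0.182 and 7.43 CPM.

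The light chain and the immunoproteasome followed the hepatocyte-rich libraries. B2m had 1529, 1667 and 6461 CPM in pathological libraries, against 1185, 7069 and 4562 CPM in physiological libraries (log2 fold change -0.44, 95% CI -2.75 to 1.88). Psmb8, Psmb9 and Psmb10 encode the catalytic subunits that interferon exchanges into the proteasome and that change which peptides are cut. Psmb8 had 21.5, 3.43 and 201 CPM in pathological libraries, against 26.9, 252 and 179 CPM in physiological libraries (log2 fold change -1.06, 95% CI -4.33 to 2.22). Psmb9 had 6.36, 1.90 and 150 CPM in pathological libraries, against 9.66, 114 and 170 CPM in physiological libraries (log2 fold change -0.99, 95% CI -4.76 to 2.79). Psmb10 had 10.3, 8.75 and 253 CPM in pathological libraries, against 11.4, 95.9 and 164 CPM in physiological libraries (log2 fold change -0.10, 95% CI -3.54 to 3.34). All 3 subunits were lowest in pathological replicate 2, and each was higher in the 3 hepatocyte-rich libraries than in the other 3. Their sum spanned a 42.9-fold range, against 3.13-fold for the class I chains. Without pathological replicate 2 these ranges were 15.8-fold and 3.11-fold.

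The transporter genes did not follow that pattern. Tap1 and Tap2 form the pump that carries peptides into the endoplasmic reticulum, and Tapbp, tapasin, bridges it to the class I chain. Tap1 had 30.9, 13.4 and 34.2 CPM in pathological libraries, against 38.6, 14.4 and 20.1 CPM in physiological libraries (log2 fold change 0.16, 95% CI -2.13 to 2.44), with the groups overlapping over a 2.88-fold range. Tap2 had 16.6, 2.31 and 0 CPM in pathological libraries, against 35.1, 20.5 and 0.112 CPM in physiological libraries (log2 fold change -1.53, 95% CI -6.90 to 3.84). It was thus at or near 0 in replicate 3 of both groups, the libraries with the smallest totals. Tapbp had 27.5, 17.4 and 0.0875 CPM in pathological libraries, against 36.2, 30.4 and 31.6 CPM in physiological libraries. Its groups did not overlap, but pathological replicate 3 held a single count, and the log2 fold change of -1.20 had a 95% CI of -4.74 to 2.33 and an edgeR unadjusted p of 0.456.

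Cd1d1, which presents lipids to NKT cells, had 1.39, 1.61 and 0.0875 CPM in pathological libraries, against 2.91, 33.2 and 5.71 CPM in physiological libraries. The groups did not overlap, and its log2 fold change of -3.77 (95% CI -8.58 to 1.03, edgeR unadjusted p 0.108) was the lowest among the members. Physiological replicate 2 held most of its physiological counts, 568, against 70 in replicate 1 and 51 in replicate 3. The costimulatory genes, whose products give T cells their second signal, were low. Cd40 and Cd86 reached 3.68 and 4.76 CPM in pathological libraries, against 23.2 and 22.4 CPM in physiological libraries, both highest in physiological replicate 2, and both were at 0 in pathological replicate 2. Cd80 lay between 0.438 and 3.28 CPM in pathological libraries, and between 0.759 and 2.21 CPM in physiological libraries.

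Counted over the members, 14 of the 40 tested were higher in every hepatocyte-rich library than in any other library, against 15.6% of all genes tested, and 3 of the 40 were lower in every one of them, against 33.2% of genes. The 14 were RT1-Da, RT1-Ba, RT1-Db1, Cd74, B2m, Psmb8, Psmb9, Psmb10, RT1-CE5, RT1-CE10, RT1-N3, RT1-S3, RT1-T24-3 and RT1-T24-4. The 3 were RT1-CE6, RT1-CE7 and RT1-M6-2. The split was drawn after the data had been seen, and it divides pressure unevenly, with 1 pathological and 2 physiological libraries on the rich side. Much else moved with it. By the same count, the split held for all 14 hepatocyte markers, on whose sum it was drawn. It held for 9 of 14 macrophage markers (among them Clec4f, Marco, Cd5l and C1qa, but not Lyz2 or Cd68) and 5 of 9 stellate cell markers. It also held for 4 of 7 endothelial markers, 3 of 9 sinusoidal endothelial markers and 0 of 8 dendritic cell markers. Going the other way, the stellate cell marker Reln and the dendritic cell markers Zbtb46 and Itgax were lower in every hepatocyte-rich library. The hepatocyte-rich libraries also had the smallest totals (11426299 in the pathological library, and 17117840 and 8925149 in the physiological libraries), the fewest genes detected (10261, and 12861 and 10674) and the highest share of mitochondrial counts. That share was 0.489%, 0.388% and 5.35% in pathological libraries, against 1.35%, 4.46% and 19.7% in physiological libraries. The part of any of these in the values of the 14 genes was not tested. Of the 7 members with a mean of at least 100 CPM, the median range over the libraries was 5.96-fold, beside 4.91-fold for all 1920 genes at that level (quartiles 2.71 and 13.8).

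**Figure D4:**
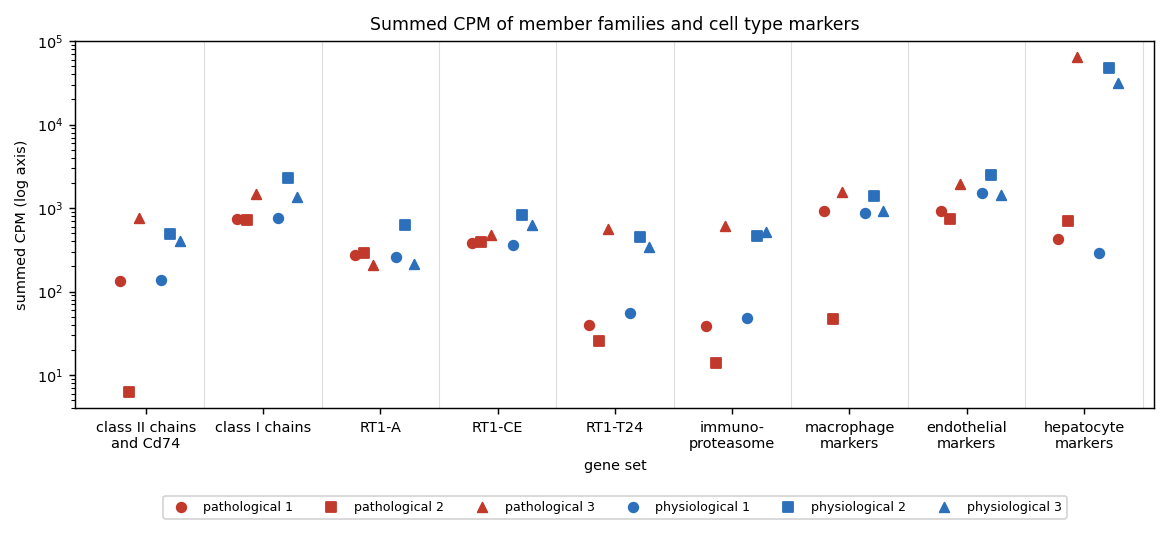
Summed CPM on a log axis (vertical) of class II chains with Cd74, class I chains, 3 class I families, the immunoproteasome subunits and 3 marker lists (horizontal), 1 point per library, with pathological libraries in red and physiological libraries in blue. RT1-A and RT1-CE stay within 208 to 817 CPM. Class II with Cd74 (6.30 to 752 CPM), RT1-T24 (25.5 to 564 CPM) and the immunoproteasome (14.1 to 604 CPM) range more widely. These sets are high in the 3 libraries with 31706 to 63692 CPM of hepatocyte markers. Over a narrower range, RT1-CE and the class I chains are also higher in each of those libraries than in any other, and RT1-A is not.

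Other genes of the pathway were read from 5 lists, and none passed the test. In peptide loading, 0 of 8 genes were called in either direction. Hspa5, the chaperone BiP, had 4378, 9268 and 367 CPM in pathological libraries, against 3278, 1069 and 582 CPM in physiological libraries (log2 fold change 1.72, edgeR unadjusted p 0.166). Calr, calreticulin, which holds class I chains during loading, had 1316, 2371 and 1300 CPM in pathological libraries, against 1247, 1016 and 717 CPM in physiological libraries (log2 fold change 0.83, edgeR unadjusted p 0.213). Every pathological value of Calr was above every physiological value.

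In class II processing, 0 of the 7 genes tested were called. Ctsd, cathepsin D, had 2008, 1916 and 295 CPM in pathological libraries, against 1517, 552 and 258 CPM in physiological libraries (log2 fold change 1.01, edgeR unadjusted p 0.275). Ctsl, cathepsin L, had 3366, 3478 and 1944 CPM in pathological libraries, against 3370, 2570 and 1532 CPM in physiological libraries (log2 fold change 0.31, edgeR unadjusted p 0.638). Unlike Ctss, both proteases stayed high in pathological replicate 2.

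In transcriptional control, 0 of 12 genes were called. Rfx5, a subunit of the complex that binds the X box, had 10.4, 1.56 and 0 CPM in pathological libraries, against 20.8, 5.49 and 50.2 CPM in physiological libraries (log2 fold change -3.01, edgeR unadjusted p 0.177). Rfxap, another subunit, had 33.0, 19.6 and 72.0 CPM in pathological libraries, against 34.6, 10.6 and 2.24 CPM in physiological libraries (log2 fold change 1.65, edgeR unadjusted p 0.200). The groups overlapped for both, and Rfx5 was at 0 in pathological replicate 3, the library with the highest class II sum.

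Of the interferon gamma signalling genes, 0 of the 8 tested were called, and Ifng itself had 0 counts in all 6 libraries. Socs1, the feedback inhibitor of this pathway, had 6.48, 8.54 and 12.7 CPM in pathological libraries, against 4.37, 0.175 and 0.112 CPM in physiological libraries (log2 fold change 2.91, edgeR unadjusted p 0.205), and its groups did not overlap.

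Among costimulation and checkpoint ligands, 0 of the 5 tested were called. Cd83, which protects class II molecules from degradation, had 4.55, 1.14 and 29.8 CPM in pathological libraries, against 4.12, 39.0 and 40.1 CPM in physiological libraries (log2 fold change -1.31, edgeR unadjusted p 0.425). Vsir, the checkpoint ligand VISTA, had 16.04, 0.211 and 20.04 CPM in pathological libraries, against 9.12, 9.64 and 1.68 CPM in physiological libraries (log2 fold change 0.91, edgeR unadjusted p 0.637). Cd83 followed the hepatocyte-rich libraries, and both genes were lowest in pathological replicate 2.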

How the data were processed

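Libraries were made from 25 ng of total RNA by a poly(A) mRNA kit and sequenced single-end, per the labels' protocols. The authors deposited 1 table of expected counts per library, per the file headers. Per the submitters' processing notes, the tools were STAR, RSEM and limma, with no version. What genome build, annotation and strand setting were used is not given in the sources used here. Reads that fit several genes are divided among them by RSEM, so copies, overlapping genes and antisense genes are uncertain.

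Expected counts were rounded and compared with edgeR 4.0.16 in R 4.3.3 (quasi-likelihood F-test, TMM scaling, filterByExpr, Benjamini-Hochberg adjustment over all genes, two-sided, threshold 0.05). Fold changes come from that fit, and CPM uses the unscaled library total. limma 3.58.1 and DESeq2 1.42.0, other scalings and filters, hepatocyte content as a covariate and leaving out each library were alternatives. The procedure was also run on simulated counts with far less spread between libraries than these data. That run does not measure its power or error rate here. Groups followed the pressure in the labels. Replicate numbers follow deposition order, and no pairing was taken from them. No 2 libraries agreed within sampling noise. The closest pair was pathological replicate 1 and physiological replicate 1 (chi-square per degree of freedom 81.9), then pathological replicates 1 and 2 (214). The reason was not tested.

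Values in every library are given for members with a mean of at least 10 CPM, or with non-overlapping groups and a mean of at least 1 CPM, 27 in all, and for the 2 genes with the smallest unadjusted p in each pathway list, except that 1 of these genes is not reported here. RT1-DOa fell outside this rule and was named after its values were seen. The members and lists were chosen with earlier results of these data known. Marker Pecam1 found no match, and Marchf1 and Marchf8 were matched by synonym. Where a group had 0 counts, the bound used 3 counts over the group. Sequences come from RefSeq, GRCr8, matched by symbol; no coordinate of the files was used.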

Additional observations from a re-analysis of the deposited data

How the results depend on the processing

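No member passed the threshold under any alternative run; the lowest adjusted p among the 27 members named with values was 0.212, and their adjusted p with edgeR on all libraries was 1.00. These 27 gave 405 fold changes under the alternatives, of which 346 kept their sign, and 8 members kept it throughout. Over all genes, DESeq2 called 1, and 244 were called in the hepatocyte-rich libraries alone, where the 1 pathological library is assumed to vary like the others; the remaining alternatives called 0. Over all alternatives the class I median ran from -0.94 to 0.16 and the class II median from -2.48 to 0.55. Signs turned as follows on the log2 scale, and the cause was not tested. With RLE scaling and with DESeq2, RT1-T24-4 was 0.0020, Psmb10 0.037 and RT1-Db1 0.12. With no scaling beyond totals, Psmb10 was 0.0054 and RT1-Db1 0.081. With hepatocyte content as a covariate, B2m was 0.15. With limma-voom, Tap1 was -0.054, RT1-Ba -1.14 and Ctss -1.59. In the hepatocyte-poor libraries alone, RT1-A1 was 0.53, RT1-A2 0.37, RT1-CE1 0.16, RT1-CE5 0.29, RT1-CE10 0.53, the RT1-CE16 rows 1.38 and 2.00, Psmb10 0.044, B2m 0.76, Tap1 -0.55, RT1-Ba -0.86 and Ctss -0.13. In the hepatocyte-rich libraries alone, RT1-N3 was 0.24, RT1-T24-4 0.83, Psmb9 0.0018, Psmb10 0.87, B2m 0.14, RT1-Da 0.85, RT1-Db1 1.03 and Cd74 0.32. Leaving out each library in turn, the range was -2.93 to 0.44 for RT1-T24-4, -3.47 to 0.89 for Psmb10, -3.24 to 0.41 for RT1-Da, -4.66 to 0.97 for RT1-Db1, -0.36 to 0.62 for Ctss, -2.19 to 0.037 for Cd74, -0.0074 to 0.43 for RT1-CE4, -0.17 to 0.47 for Tap1, -2.56 to 1.31 for RT1-Ba, -0.83 to 0.54 for RT1-A1, -0.44 to 0.041 for RT1-CE1, -0.87 to 0.34 for RT1-CE10, -3.66 to 2.37 for RT1-CE16 (ENSRNOG00000059770) and -1.51 to 0.048 for B2m. Summing RT1 families and fitting the hepatocyte-rich or hepatocyte-poor libraries alone were chosen after seeing the data. The planned sum of copies by protein identity was not run. No paired analysis was possible because the labels give the groups no shared replicate numbers: the sample numbers are 3, 9 and 23 in the pathological group and 2, 11 and 22 in the physiological group, some of them neighbours, and no label says that neighbours share a preparation, so that was not tested. With 3 libraries a group and this spread, a missed threshold does not show equal levels, and copies that share reads limit single class I genes.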
